A study of Homo sapiens with 12 samples.

Results

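Oxidative phosphorylation is carried out by 5 protein complexes of the inner mitochondrial membrane. Complexes I to IV pass electrons from NADH and succinate to oxygen, complexes I, III and IV pump protons on the way, and complex V, the ATP synthase, uses the proton gradient to make ATP. Most subunits are encoded in the nucleus and imported, whereas a small core set is encoded by mitochondrial DNA, so that complexes I, III, IV and V need products of both genomes and complex II is all nuclear. In the normal prostate the secretory epithelium is known for accumulating citrate rather than oxidising it, and PCa cells are known for a shift back to citrate oxidation, which makes the transcripts of this pathway a point of interest in prostate lines.

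The 100 genes described here were the protein-coding rows of the deposited table, 58302 rows in all, whose symbol began with NDUF, SDH, UQCR, COX or ATP5, without the NDUFAF, SDHAF and SDHAP names. They comprised 38 genes of complex I, 4 of complex II, 9 of complex III, 28 of complex IV and 21 of complex V. The name rule also admitted 9 assembly factors of complex IV (COX10 to COX20), 2 readthrough loci and the retrocopy UQCRHL, and it left out CYC1, a catalytic subunit of complex III. Values were RNA-sequencing FPKM, that is, reads scaled to gene length and sequencing depth, in 4 libraries each of 3 established human cell lines. BPH-1 is a line of benign prostate epithelium immortalised with a viral large T antigen, and DU145 and PC3 are PCa lines grown from a brain and a bone metastasis. The labels give all 12 samples as wild type (WT), name no treatment and give the same serum-supplemented medium, and the design set the benign line against the PCa lines. With 1 benign line, disease state and line cannot be told apart, and the labels do not say whether the 4 samples of a line were separate cultures, so the p-values measure the spread between these samples only, which may be technical.

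The libraries held between 12950665 and 16309559 reads. KRT8 and KRT18, keratins of simple epithelium, were read in every library (14.7 to 99.2 FPKM). The epithelial adhesion genes EPCAM and CDH1 reached 57.7 to 63.2 and 16.3 to 44.6 FPKM in BPH-1, but EPCAM was at 6.92 to 11.1 in PC3 and both were under 0.6 in DU145. The identity of the lines was not tested beyond these markers, so every comparison is one of libraries as labelled. The summed level of the 3 leukocyte markers was 8.76 to 11.6 FPKM in the 4 BPH-1 libraries and 9.11 and 9.88 in DU145 replicates 1 and 2, 0 in DU145 replicates 3 and 4, and 0.0282 to 0.167 in PC3. LYZ and PTPRC carried that sum, and the T-cell marker CD3E was at 0 in all 12 libraries. Of the other lists, the 4 stromal markers summed to at most 3.84 FPKM in any library and the 3 endothelial markers to at most 2.28. Between the pairs of DU145 libraries, 13 genes had at least 50 reads in replicates 1 and 2 and at most 3 in replicates 3 and 4, 3 genes showed the reverse, and 0 of these were oxidative phosphorylation genes. Counts for DU145 are therefore given for all 4 libraries and for each pair, and the part of the leukocyte transcripts in the results was not tested.

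DU145 libraries also differed in the level of the oxidative phosphorylation genes as a whole. Relative to the mean of the line on the log2(FPKM + 1) scale, the median of 93 genes with enough reads was 0.12 in replicate 1, -0.26 in replicate 2, 0.37 in replicate 3 and -0.24 in replicate 4. The corresponding medians of all genes tested lay between -0.03 and 0.02 over the 12 libraries. Replicates 1 and 3 were thus high and replicates 2 and 4 low, a grouping other than that of the leukocyte markers. GC content moved with it: genes outside the set of the lowest GC content (at most 42.4%) deviated by -0.22, 0.38, -0.41 and 0.25 in DU145 replicates 1 to 4, and those of the highest GC content (at least 58.4%) by 0.15, -0.26, 0.26 and -0.15. In PC3, replicate 4 stood 0.16 above its line and the other 3 between -0.09 and 0.00, and BPH-1 libraries between -0.034 and 0.024. The oxidative phosphorylation genes had a median GC content of 47.8%, against 49.4% over all genes tested. Their median merged exon length was 2652 bases, against 4587. The parts of base composition and gene length in the differences between libraries and lines were not tested directly. Results with the GC trend divided out are given for part of the genes.

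**Figure D1:**
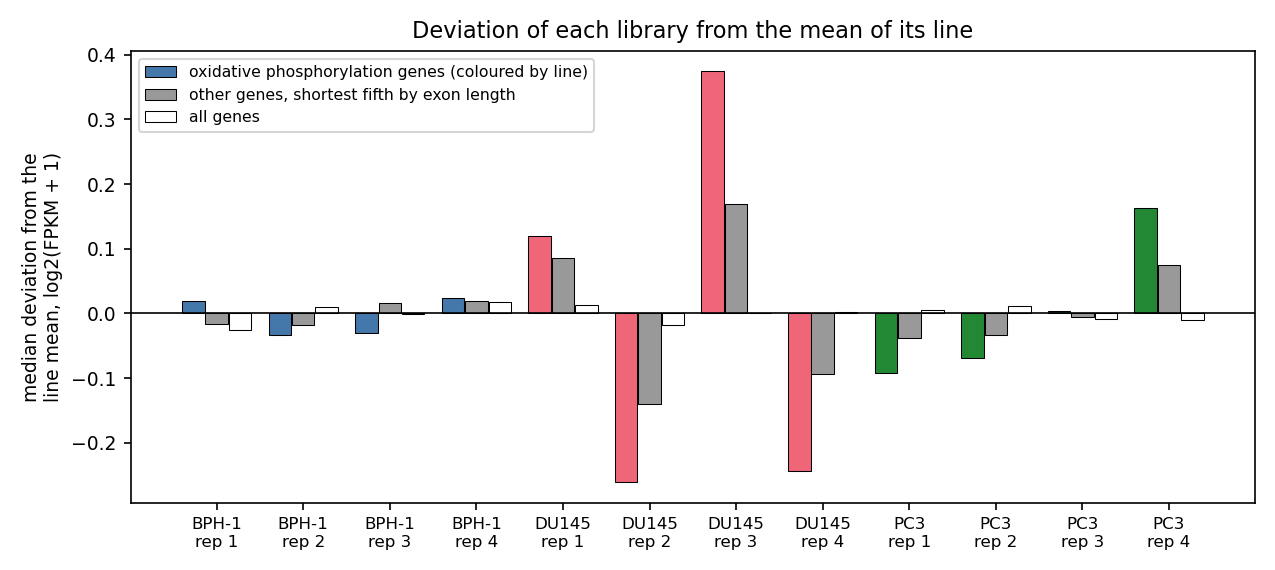
Median deviation of each library from the mean of its own line, on the log2(FPKM + 1) scale, for 93 oxidative phosphorylation genes with enough reads (coloured bars), for 2954 other genes with at most 2279 bases of merged exons (grey) and for all genes tested (white). DU145 replicates 1 and 3 lie above 0 and replicates 2 and 4 below it, in the coloured and in the grey bars.

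The first comparison set PC3 against BPH-1. Oxidative phosphorylation genes were mostly higher in PC3. Of 93 genes with enough reads, 53 were higher (57.0%) and 12 lower (12.9%) at a limma adjusted p under 0.05, where 27.1% of the 16408 genes tested were higher and 40.4% lower. The median log2 fold change was 0.41, against -0.13 over all genes tested. With a log2 fold change over 1 required as well, 12 genes were higher (12.9%, against 9.42% of all genes) and 3 lower (3.23%, against 17.6%). The split turned to 3 higher and 5 lower with libraries scaled to the same sum (6.75% and 21.7% of all genes). It was 18 and 0 by median of ratios (11.6% and 15.4% of all genes) and by upper quartile (11.7% and 15.4%). Levels in bulk RNA do not separate fewer cells of a kind from less RNA per cell. COX6C, ATP5MC2, UQCRC1, NDUFB7, NDUFA3 and ATP5F1B gave the largest rises without overlap of the lines, and NDUFS4, UQCRC2, NDUFA12, ATP5F1D, ATP5PB and NDUFA5 the largest falls.

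In DU145 against BPH-1, 35 of 94 genes were higher (37.2%) and 12 lower (12.8%), where 30.3% of 17016 genes were higher and 32.4% lower. The median log2 fold change was 0.30, against -0.03 over all genes. Whether DU145 differed from BPH-1 by less than PC3 did was not tested, and 1 fit over the 3 lines called 39 higher and 15 lower in DU145 and 43 and 10 in PC3. The fold requirement left 9 higher (11.5% of all genes) and 4 lower (17.3%), which turned to 5 and 7 with libraries scaled to the same sum and became 14 and 6 with a pseudocount of 0.1 or with voom. Replicates 1 and 2 of DU145 alone gave 31 higher and 16 lower, where 25.4% of all genes were higher and 27.8% lower. Replicates 3 and 4 alone gave 29 higher and 10 lower, where 26.3% of all genes were higher and 28.6% lower. DU145 replicate 3 decided part of the lower calls, which numbered 20 without it (21.3%, against 30.7% of all genes). ATP5MC2, COX7A2L, NDUFA7, COX6C and ATP5F1B were among the largest rises without overlap, and ATP5PB, UQCRC2, COX16, NDUFS5, NDUFS1 and ATP5MC3 gave the largest falls.

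At an adjusted p under 0.05, the size of these splits, and in DU145 also their direction, depended on how the libraries were scaled. The 13 subunits encoded by mitochondrial DNA held 25.3% ± 1.18 (SD, n = 4) of the summed FPKM in BPH-1, 31.7% ± 5.76 in DU145 and 30.3% ± 3.28 in PC3. DU145 replicate 3 (24.7%) and PC3 replicate 4 (25.4%) lay within the BPH-1 range of 23.6% to 26.3%. In these libraries the nuclear genes described here stood highest within their lines. The sum itself was 243707 to 249733 FPKM in BPH-1 and 289756 to 306698 in the PCa lines. With every library rescaled to the same sum, the median of all genes moved from -0.13 to -0.28 in PC3 and from -0.03 to -0.16 in DU145. The genes described here then split into 33 higher and 22 lower in PC3, where 20.9% of all genes were higher and 48.3% lower, and their median was 0.17. In DU145 the split turned to 21 higher and 24 lower, where 24.3% of all genes were higher and 38.6% lower, and their median was 0.08. Dividing out the trend with gene length gave 42 higher and 19 lower in PC3 and 31 higher and 21 lower in DU145. Relative to all genes of the same fit, the median of the set stayed above in each of these settings.

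**Figure D2:**
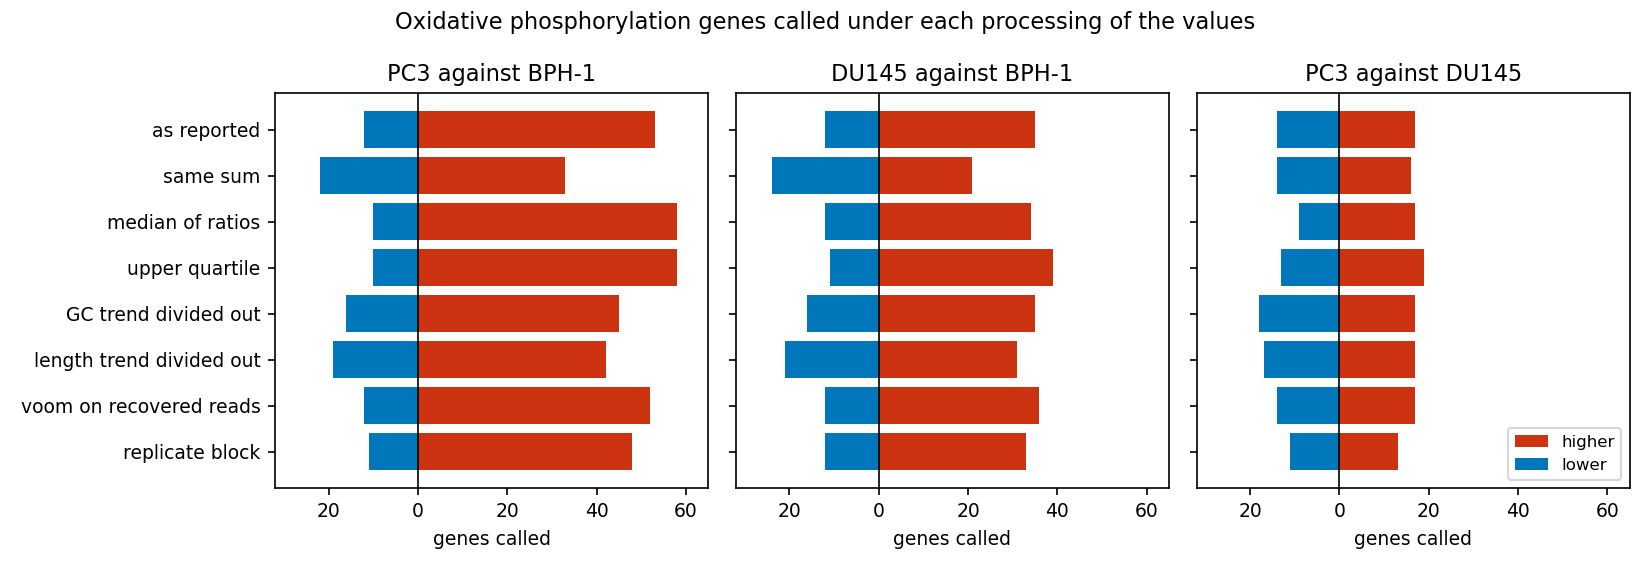
Number of oxidative phosphorylation genes called higher (red, to the right) and lower (blue, to the left) at an adjusted p under 0.05 in each comparison, as reported and under 7 other treatments of the same values. Higher calls outnumber lower calls against BPH-1 except in DU145 with libraries scaled to the same sum, where 21 were higher and 24 lower.

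**Figure D3:**
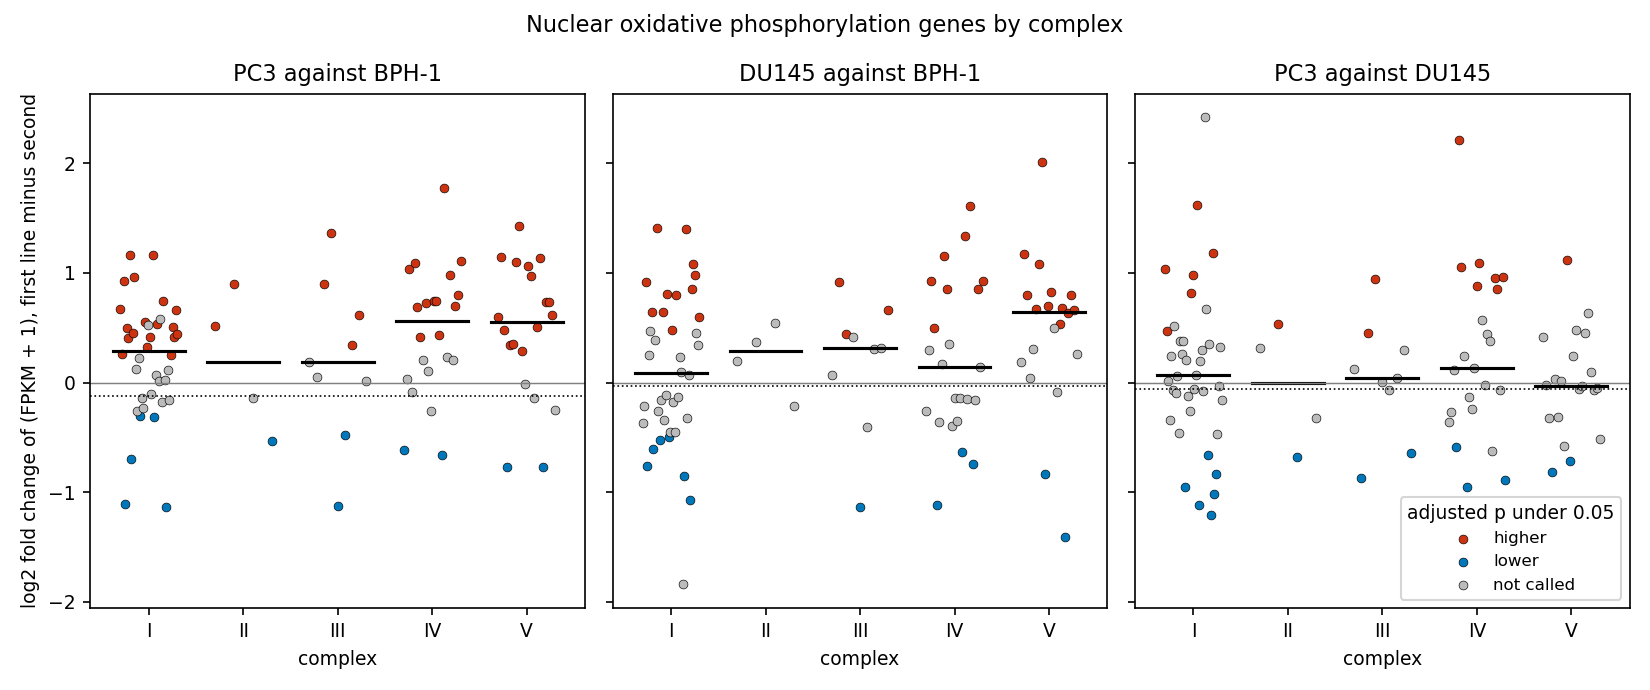
Log2 fold change of (FPKM + 1) of each tested gene by complex in the 3 comparisons, coloured by its call, with the median of each complex (black bar) and of all genes tested (dotted line). Complexes IV and V sit highest in PC3 against BPH-1, with medians of 0.56 and 0.55, and the points of PC3 against DU145 lie on both sides of 0.

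Complex I takes electrons from NADH, and its genes did not move as a block. In PC3, 19 of 38 were higher, 5 lower and 14 not called, where 27.1% of all genes were higher and 40.4% lower. The median log2 fold change was 0.29. In DU145, 12 were higher, 6 lower and 20 not called, with a median of 0.08, where 30.3% of all genes were higher and 32.4% lower. Under scaling to the same sum the split was 8 higher and 10 lower in PC3, where 20.9% of all genes were higher and 48.3% lower. In DU145 it was 6 higher and 12 lower, where 24.3% of all genes were higher and 38.6% lower. The medians were then 0.06 and -0.15, against -0.28 and -0.16 over all genes. With the GC trend divided out the DU145 split was 9 and 9 (28.3% and 33.7% of all genes). With the length trend divided out it was 10 and 11 (29.9% and 32.9% of all genes). The direction of the split for this complex thus depended on the processing.

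The 7 nuclear core subunits of complex I carry the flavin and the iron-sulfur clusters. In PC3, 5 of the 7 were higher and none lower, and in DU145 3 were higher and 1 lower. NDUFS7 and NDUFS8, which hold iron-sulfur clusters, were higher in DU145 by 1.09 ± 0.19 (limma adjusted p = 0.000681) and 0.98 ± 0.22 (limma adjusted p = 0.00287). In PC3 NDUFS8 was higher by 0.51 ± 0.13, whereas the rise of NDUFS7 by 0.25 ± 0.10 turned to a log2 fold change of -0.13 with the GC trend divided out. NDUFS1, the largest core subunit, went the other way in DU145. It had 10.7, 9.85, 10.8 and 10.8 FPKM in BPH-1 against 4.76, 7.47, 3.34 and 6.83 in DU145, a fall by 0.85 ± 0.22 on the log2 scale (limma adjusted p = 0.00642). In PC3 it was 9.40 FPKM ± 2.36 (SD, n = 4) and did not pass the test. NDUFV2, of the NADH-binding module, rose in PC3 by 0.66 ± 0.10 (limma adjusted p = 0.000343), NDUFV1 by 0.42 ± 0.09 (-0.062 with the GC trend divided out), and neither passed in DU145. NDUFS3 averaged 3.34, 2.51 and 3.45 FPKM in BPH-1, DU145 and PC3 and passed neither comparison with BPH-1.

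Among the accessory subunits, which surround the core, 14 of 30 were higher and 5 lower in PC3, and 9 were higher and 5 lower in DU145. These counts, like those of the core subunits, stand beside 27.1% of all genes higher and 40.4% lower in PC3 and 30.3% and 32.4% in DU145. The rises of accessory subunits in DU145 were near the share of all genes. NDUFB7, of the membrane arm (GRCh38 chromosome 19, 14566078 to 14572062, minus strand), had 90.2, 88.6, 86.5 and 96.3 FPKM in BPH-1, 69.6, 54.6, 92.6 and 52.8 in DU145 and 186, 181, 201 and 258 in PC3. The 4 PC3 libraries lay above the other 8, and the rise over BPH-1 was 1.17 ± 0.12 on the log2 scale (limma adjusted p = 2.92e-05). NDUFS4, an assembly-critical subunit near the NADH module (chromosome 5, 53560633 to 53683340, plus strand), showed the opposite order. It had 8.03, 8.02, 9.09 and 9.02 FPKM in BPH-1, 9.70, 8.21, 9.30 and 8.92 in DU145 and 3.40, 3.51, 2.61 and 3.93 in PC3. Its fall in PC3 was -1.14 ± 0.12 (limma adjusted p = 3.6e-05), without overlap, while DU145 and BPH-1 overlapped at a log2 fold change of 0.07. NDUFA12, which sits beside NDUFS4 in the peripheral arm, averaged 14.9, 8.28 and 6.33 FPKM in BPH-1, DU145 and PC3, and fell in PC3 by 1.11 ± 0.13 (limma adjusted p = 6.14e-05) and in DU145 by 0.76 ± 0.15 (limma adjusted p = 0.00167). The DU145 fall did not pass with the GC trend divided out.

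NDUFS5, with the highest deposited mean FPKM of complex I, had 246, 234, 218 and 233 FPKM in BPH-1 and 242, 232, 250 and 287 in PC3. DU145 libraries held 123, 87.8, 158 and 86.5, all below the others, at a log2 fold change of -1.07 ± 0.20 against BPH-1 (limma adjusted p = 0.00115). NDUFA1, a membrane-arm subunit, averaged 136, 109 and 219 FPKM and rose in PC3 by 0.67 ± 0.12 (limma adjusted p = 0.000757), with 44.5% of its exon length shared with RNF113A on the other strand. NDUFA3 and NDUFA7 were higher in both PCa lines, NDUFA3 at 4.22, 7.30 and 10.8 FPKM and NDUFA7 at 6.31, 18.5 and 13 FPKM in BPH-1, DU145 and PC3. The use of strand in counting is not given in the sources used here, and 32.3% of the NDUFA7 exon length overlaps another annotated gene. NDUFA5 fell from 1.59 FPKM to 0.712 in DU145 and 0.602 in PC3, and neither fall passed with the GC trend divided out. NDUFB8 and NDUFB1 were each lower in PC3 and higher in DU145, though each of these 4 calls was lost under at least 1 alternative. NDUFB8 had 9.34, 8.06, 8.63 and 8.43 FPKM in BPH-1, 28.3, 10.1, 18.5 and 11.4 in DU145 and 6.30, 6.75, 6.84 and 7.10 in PC3, and 33.8% of its exon length overlaps another gene. NDUFC2-KCTD14, a readthrough locus, ranged widely between libraries and passed in none of the 3 comparisons.

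Complex II, succinate dehydrogenase, joins the tricarboxylic acid cycle to the respiratory chain and has 4 subunits, all nuclear. In PC3, SDHA and SDHB rose and SDHD fell, and in DU145 none passed. SDHA, the flavoprotein, had 12, 12.2, 12.8 and 13.2 FPKM in BPH-1 and 16.0, 18.2, 19.0 and 20.7 in PC3, a rise by 0.52 ± 0.10 (limma adjusted p = 0.00161). SDHB, the iron-sulfur subunit, had 20.8, 24.0, 22.1 and 21.2 in BPH-1 and 37.6, 39.7, 41.6 and 49.6 in PC3, a rise by 0.90 ± 0.11 (limma adjusted p = 7.41e-05). Both catalytic subunits were thus higher without overlap, but SDHA did not pass with the GC trend divided out. Reads of 3 named SDHA pseudogenes came to 20.6% of those of SDHA. Of the membrane anchors, SDHD fell from 5.06 FPKM ± 0.505 to 3.19 ± 0.406, by 0.53 ± 0.12 on the log2 scale (limma adjusted p = 0.00321), and SDHC was 7.19 ± 0.299 and 6.44 ± 0.677. Reads of 3 named SDHD pseudogenes came to 62.2% of those of SDHD, so its level is uncertain.

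Complex III passes electrons from ubiquinol to cytochrome c. Its subunits UQCRC1 and UQCRC2, the core proteins that form a pair in each monomer, moved in opposite directions in PC3. UQCRC1 (chromosome 3, 48599002 to 48610976, minus strand) had 30.2, 26, 25.7 and 28.1 FPKM in BPH-1, 43.3, 24.8, 54.0 and 32.1 in DU145 and 74.8, 71.5, 63.2 and 80.8 in PC3. UQCRC2 (chromosome 16, 21952660 to 21983660, plus strand) had 36.5, 29.5, 31.3 and 33.9 in BPH-1, 12.2, 19.9, 9.25 and 18.5 in DU145 and 14.3, 16.5, 15.1 and 12.1 in PC3. UQCRC1 was higher in all PC3 libraries than in the other 8, and UQCRC2 was lower in all 8 PCa libraries than in BPH-1. The log2 fold changes in PC3 were 1.37 ± 0.11 (limma adjusted p = 4.4e-06) and -1.13 ± 0.12 (limma adjusted p = 3.01e-05). In DU145 they were 0.42 ± 0.23 (limma adjusted p = 0.133) and -1.14 ± 0.23 (limma adjusted p = 0.00185). On the scale of FPKM recomputed with merged exons, which allows levels of different genes to be set side by side, UQCRC1 and UQCRC2 stood at 51.2 and 48.7 in BPH-1, 71.7 and 22.2 in DU145 and 135 and 21.5 in PC3.

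Of all 9 complex III genes, 4 were higher and 2 lower in PC3, and 3 were higher and 1 lower in DU145, where 30.3% of all genes were higher. With libraries scaled to the same sum the split was 3 and 2 in PC3 (median log2 fold change -0.08) and 1 and 2 in DU145. In PC3 it was 4 and 3 with the GC trend divided out (median -0.07) and 3 and 3 with the length trend divided out (median -0.19). The direction for this complex thus also depended on the processing. UQCRH, the hinge protein, and UQCR10, a small subunit, had high deposited FPKM. UQCRH averaged 63.4, 79.7 and 80.8 FPKM in BPH-1, DU145 and PC3, but shares sequence with its retrocopy UQCRHL, and its rise in PC3 (0.35 ± 0.10) turned to -0.0093 with the length trend divided out. UQCR10 was at 44.7, 48.1 and 51.2 and passed no test. CYC1, the cytochrome c1 subunit of this complex that the name rule leaves out, averaged 20.3, 53.9 and 84.4 FPKM and rose by 2.0 ± 0.11 in PC3 (limma adjusted p = 4.35e-07) and 1.33 ± 0.20 in DU145 (limma adjusted p = 0.000312). CYCS, which encodes cytochrome c itself, averaged 32.4, 16.9 and 13.3 FPKM and fell by 1.25 ± 0.19 in PC3 (limma adjusted p = 0.000266) and 0.98 ± 0.27 in DU145 (limma adjusted p = 0.00932).

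Complex IV, cytochrome c oxidase, reduces oxygen to water. Over all its genes with enough reads, 13 of 22 rose and 2 fell in PC3, where 27.1% of all genes were higher and 40.4% lower. In DU145, 8 of 23 rose and 3 fell, where 30.3% of all genes were higher and 32.4% lower, so the rises were near that share. With libraries scaled to the same sum the DU145 split was 7 and 7, where 24.3% of all genes were higher and 38.6% lower. The median log2 fold change was then -0.08, against -0.16 over all genes. Of its 11 nuclear subunits in the common isoforms, 7 rose and 0 fell in PC3 (median log2 fold change 0.70), and 2 rose and 1 fell in DU145 (median -0.14). COX6C, a small regulatory subunit, had 10.0, 9.33, 9.79 and 11 FPKM in BPH-1, 28.8, 22.2, 37.8 and 21.4 in DU145 and 32.5, 33.6, 36.1 and 46.5 in PC3. The lines did not overlap with BPH-1, and the rises were 1.78 ± 0.13 in PC3 (limma adjusted p = 2.7e-06) and 1.34 ± 0.19 in DU145 (limma adjusted p = 0.000226). COX8A, with the highest deposited mean FPKM of complex IV, averaged 135, 255 and 236 FPKM and rose by 0.79 ± 0.11 in PC3 (limma adjusted p = 0.000188) and 0.86 ± 0.22 in DU145 (limma adjusted p = 0.0064), with 34.5% of its exon length overlapping another gene. COX6A1 and COX5B, at 63.8 and 58.1 FPKM in BPH-1 and 109 and 98.6 in PC3, rose in PC3 by 0.74 ± 0.15 and 0.75 ± 0.11, and reads of 2 COX6A1 pseudogenes came to 85.6% of its own. COX7B was lower in DU145, at 15.2 FPKM ± 3.14 against 25.9 ± 1.52 in BPH-1, but its log2 fold change of -0.75 became 0.023 with the GC trend divided out. COX6B1 averaged 43.2, 41.7 and 59.0 FPKM, and its rise in PC3 by 0.43 became -0.023 in the same setting. COX4I1 averaged 6.48, 8.72 and 7.08 FPKM and COX7A2 averaged 15.3, 14.2 and 18.4, and neither passed in any comparison.

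Complex IV has alternative isoforms, several known from muscle, lung or testis. COX4I2, COX6A2, COX7A1 and COX7B2 had no read in any library, and COX8C was read in 1. COX6B2, known as the testis isoform of COX6B1, was low throughout and fell from 0.729 FPKM ± 0.144 in BPH-1 to 0.111 ± 0.0753 in DU145 and 0.0900 ± 0.0431 in PC3. In both comparisons with BPH-1, COX6B2 had enough reads only through BPH-1, where it was high. Both falls therefore rest on that selection and are included in the counts of those comparisons. NDUFA4L2, a paralog of NDUFA4 known as a hypoxia-responsive gene, was at 1.05 FPKM ± 0.336 in DU145 against 0.0661 ± 0.0482 in BPH-1 and 0.0924 ± 0.0454 in PC3. Its log2 fold change in DU145 was 0.93 ± 0.11 (limma adjusted p = 7.24e-05). NDUFA4L2 had enough reads only through DU145, where it was high, and was not tested in PC3 against BPH-1. This call and its call in PC3 against DU145 therefore rest on that selection, and both are included in the counts of those comparisons. NDUFA4, a subunit of complex IV despite its name, went up in PC3 instead, to 21.5 FPKM ± 4.87 from 9.33 ± 1.61, a rise by 1.11 ± 0.18 (limma adjusted p = 0.000452). COX7A2L, which takes part in joining complexes III and IV, had 5.82, 4.01, 6.18 and 6.22 FPKM in BPH-1, 31.2, 12.3, 22.8 and 14.1 in DU145 and 8, 13.8, 10.7 and 16.5 in PC3. It rose by 1.61 ± 0.28 in DU145 (limma adjusted p = 0.000715) and 0.99 ± 0.21 in PC3 (limma adjusted p = 0.00257).

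The 9 COX assembly factors, which insert copper and haem or fold the mitochondrially encoded subunits, gave 5 rises and 1 fall in PC3 and 4 rises and 1 fall in DU145. Over all genes, 27.1% were higher and 40.4% lower in PC3, and 30.3% and 32.4% in DU145. COX16, which takes part in the maturation of the copper-holding subunit (chromosome 14, 70325081 to 70359731, minus strand), separated all 3 lines. It had 7.03, 6.71, 6.71 and 7.78 FPKM in BPH-1, 2.31, 2.71, 2.70 and 3.13 in DU145 and 14.9, 17.0, 15.8 and 17.0 in PC3. Against BPH-1 it rose by 1.09 ± 0.10 in PC3 (limma adjusted p = 1.09e-05) and fell by 1.12 ± 0.14 in DU145 (limma adjusted p = 0.000107), and the fall did not pass with the GC trend divided out. A readthrough gene covers 36.0% of its exon length. COX17, a copper chaperone, averaged 6.92, 5.27 and 11.8 FPKM, and COX19, another factor of copper delivery, 4.59, 11.5 and 5.54, so that one was high in PC3 and the other in DU145.

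Complex V, the ATP synthase, had 15 of 20 genes higher and 2 lower in PC3 and 12 higher and 2 lower in DU145. These counts stand beside 27.1% of all genes higher and 40.4% lower in PC3 and 30.3% and 32.4% in DU145. The medians of complex V were 0.55 and 0.65. With libraries scaled to the same sum it had 9 higher and 4 lower in PC3, where 20.9% of all genes were higher and 48.3% lower. In DU145 it then had 7 and 2, where 24.3% of all genes were higher and 38.6% lower. The c ring, through which protons pass, is built from 1 mature protein that ATP5MC1, ATP5MC2 and ATP5MC3 all encode, and the 3 genes differed. ATP5MC2 (chromosome 12, 53632726 to 53677408, minus strand) had 2.75, 2.95, 3.20 and 4.56 FPKM in BPH-1, 21.1, 11.9, 22 and 12.8 in DU145 and 9.94, 8.96, 12.7 and 11.3 in PC3. ATP5MC1 had 6.88, 6.24, 4.18 and 5.11 in BPH-1, 15, 10.1, 17.3 and 10.3 in DU145 and 13.2, 12.9, 12.6 and 13.3 in PC3. Both were higher in all 8 PCa libraries. ATP5MC2 rose by 2.01 ± 0.24 in DU145 (limma adjusted p = 5.81e-05) and 1.43 ± 0.16 in PC3 (limma adjusted p = 3.8e-05), and ATP5MC1 by 1.08 ± 0.22 (limma adjusted p = 0.00169) and 1.10 ± 0.14 (limma adjusted p = 9.09e-05). ATP5MC3 had 14.3, 13.7, 14.6 and 15.5 FPKM in BPH-1, 8.25, 6.05, 11 and 6.34 in DU145 and 16.7, 16.0, 18.8 and 20.4 in PC3. It fell in DU145 by 0.83 ± 0.19 (limma adjusted p = 0.00353), which did not pass with the GC trend divided out, and its rise in PC3 was 0.29 ± 0.11 (limma adjusted p = 0.0367). By FPKM recomputed with merged exons, ATP5MC3 stood highest of the 3 in BPH-1 (17.6, against 9.90 for ATP5MC1 and 6.09 for ATP5MC2), and in DU145 it stood lowest (9.58, against 23.2 and 30.7).

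The F1 head, where ATP is made, and its stalk gave 4 rises and 1 fall among 5 genes in PC3, where 27.1% of all genes were higher and 40.4% lower. In DU145 they gave 2 rises among the 5, where 30.3% of all genes were higher and 32.4% lower. ATP5F1B, the catalytic beta subunit, had 37.4, 33.9, 34.0 and 31.6 FPKM in BPH-1, 93.7, 59.4, 106 and 63.5 in DU145 and 71.6, 79.3, 67.6 and 90.9 in PC3. It was higher in all 8 PCa libraries, by 1.17 ± 0.20 in DU145 (limma adjusted p = 0.000684) and 1.15 ± 0.11 in PC3 (limma adjusted p = 2.08e-05). ATP5F1D, the delta subunit of the central stalk, fell in PC3 from 7.34 FPKM ± 1.03 to 3.87 ± 0.379, and was 7.64 ± 1.40 in DU145. In the peripheral stalk, which holds the head still, ATP5PD, ATP5PF and ATP5PO rose in both lines and ATP5PB fell. ATP5PB (chromosome 1, 111448864 to 111462773, plus strand) had 27, 21.6, 24.4 and 22.4 FPKM in BPH-1, 6.94, 12.7, 4.40 and 11.9 in DU145 and 18, 15.9, 14.1 and 8.18 in PC3. Its log2 fold changes were -1.40 ± 0.28 in DU145 (limma adjusted p = 0.00173) and -0.77 ± 0.21 in PC3 (limma adjusted p = 0.0091). In DU145 replicates 1 and 3, where most of the set was high, ATP5PB, UQCRC2 and NDUFS1 were at their lowest. ATP5PF and ATP5MD had high deposited FPKM, ATP5PF at 47.6, 84.3 and 80.3 FPKM and ATP5MD at 53.4, 89.3 and 53.0 in BPH-1, DU145 and PC3. ATP5IF1, the inhibitor that binds the head when the gradient falls, averaged 26.8, 43.7 and 34.2 FPKM, rising by 0.67 ± 0.20 in DU145 and, with overlap, by 0.35 ± 0.13 in PC3.

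**Figure D4:**
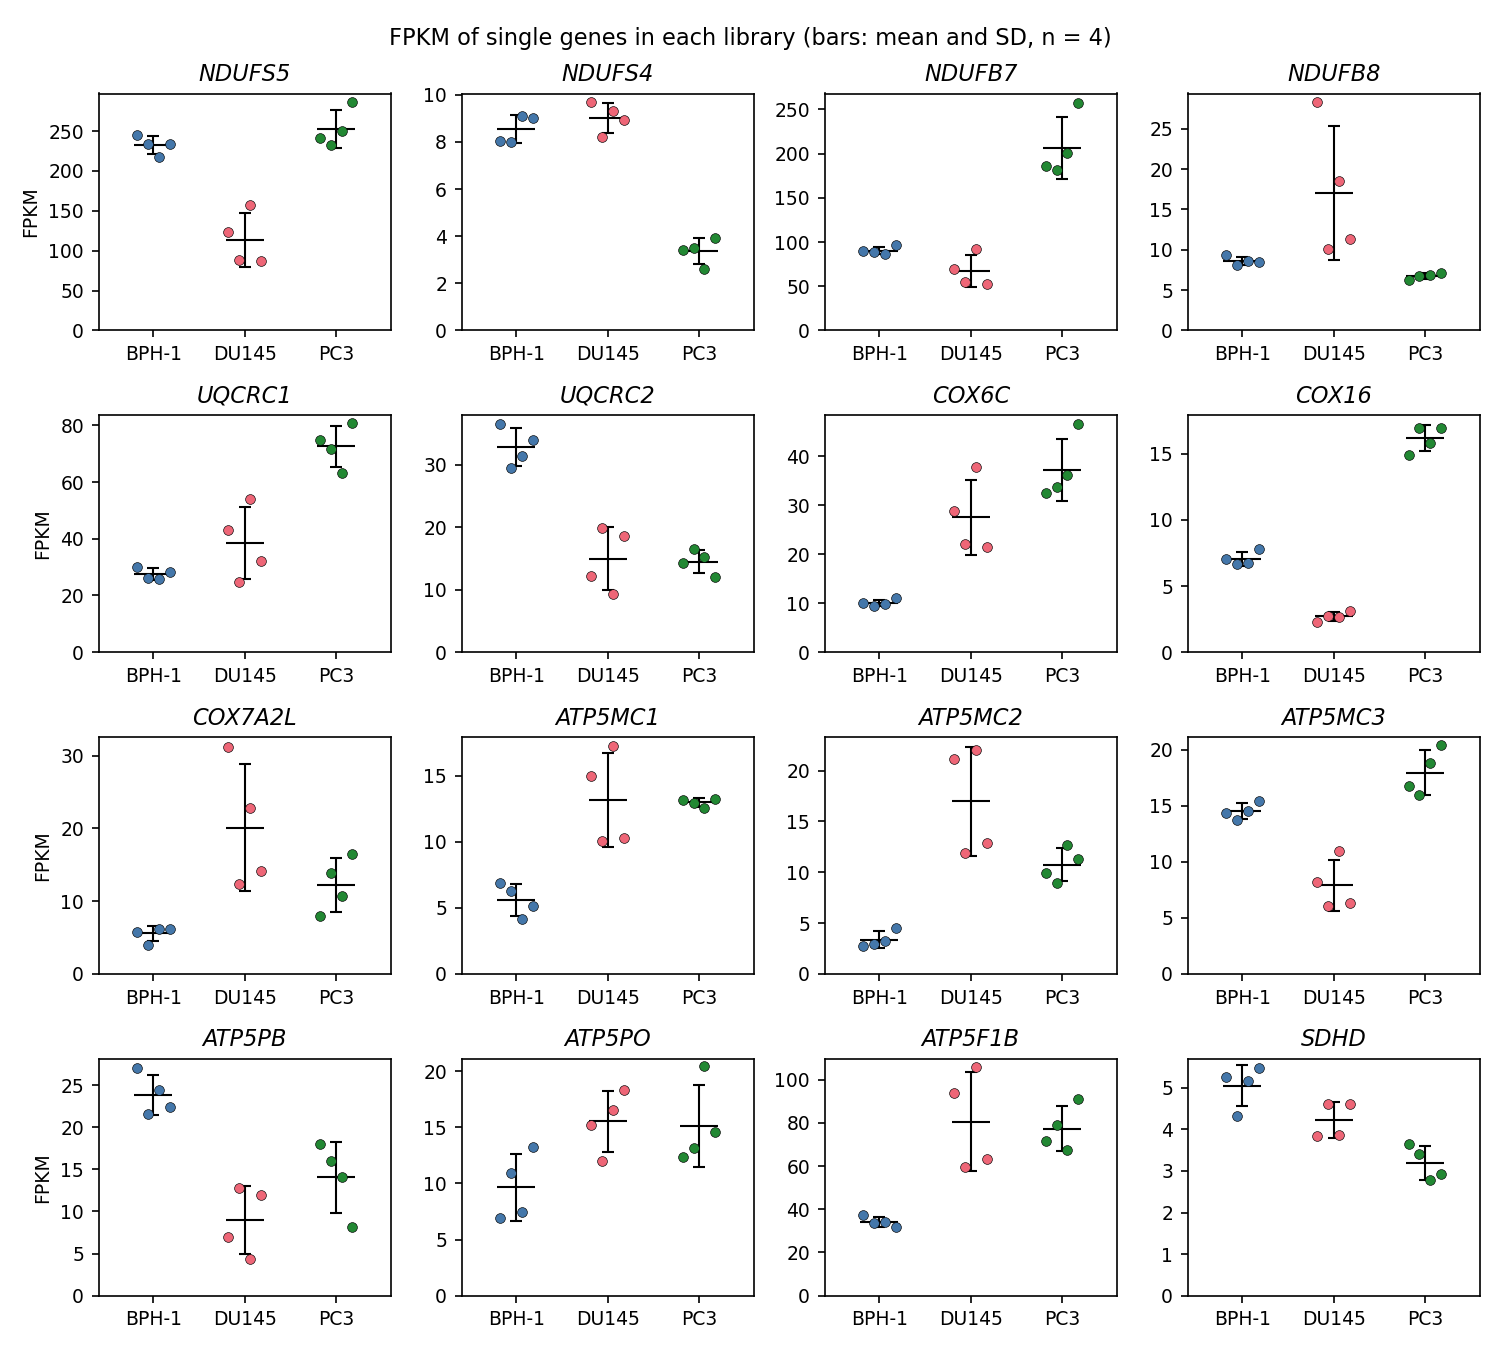
FPKM of 16 genes in each library (points) with the mean and SD of the 4 libraries of each line, 1 panel a gene, each on its own axis from 0. UQCRC1 and UQCRC2 differ in direction in PC3, COX16 separates the 3 lines, and ATP5MC2 is higher in all DU145 and PC3 libraries than in BPH-1.

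The PCa lines were also compared with each other, since the comparisons above share the BPH-1 libraries. Of 94 genes, 17 were higher in PC3 (18.1%) and 14 lower (14.9%), where 20.0% of 16420 genes were higher and 28.3% lower. The median log2 fold change was 0.04, against -0.05 over all genes. The fold requirement left 7 higher (8.22% of all genes) and 3 lower (11.1%), but 4 and 5 without PC3 replicate 4, 4 and 4 without DU145 replicate 2, 12 and 2 without DU145 replicate 3, and 9 and 7 with a pseudocount of 0.1. DU145 replicate 3 decided part of this, since 29 genes were higher in PC3 without it. With replicates 1 and 2 of DU145 alone 19 were higher and 11 lower, and with replicates 3 and 4 alone 12 and 9. COX16 (2.21 ± 0.13, limma adjusted p = 2.03e-06), NDUFB7 (1.62 ± 0.21, limma adjusted p = 0.000186), NDUFS5 (1.18 ± 0.21, limma adjusted p = 0.00124) and ATP5MC3 (1.12 ± 0.19, limma adjusted p = 0.0011) led the genes higher in PC3, followed by COX6A1 and COX17. NDUFS4 (-1.21 ± 0.14, limma adjusted p = 0.000131), NDUFB8 (-1.11 ± 0.28, limma adjusted p = 0.0101) and NDUFB1 (-0.95 ± 0.16, limma adjusted p = 0.00102) led those lower, followed by COX19, NDUFA4L2 and NDUFS7. UQCRC2 did not differ detectably between the PCa lines (0.01 ± 0.24, limma adjusted p = 0.977).

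Other genes of the pathway gave the surrounding picture. The mitochondrially encoded subunits counted 7 higher and 1 lower of 13 in PC3, with a median log2 fold change of 0.39, and 8 higher and 1 lower in DU145, with a median of 0.63. MT-ND1 rose in PC3 by 1.35 ± 0.12 (limma adjusted p = 8.72e-06). Of 40 assembly factors with other names, 12 were higher and 12 lower in PC3 and 12 higher and 6 lower in DU145. The 18 enzymes of the tricarboxylic acid cycle and pyruvate dehydrogenase split into 10 higher and 6 lower in PC3 and 6 higher and 8 lower in DU145. The 13 carriers and complex III genes outside the name rule split into 4 higher and 5 lower in PC3 and 2 higher and 4 lower in DU145. The regulators of mitochondrial gene expression gave 2 higher and 8 lower of 18 tested in PC3 and 2 higher and 6 lower in DU145. These counts, like those of the other lists, stand beside 27.1% of all genes higher and 40.4% lower in PC3 and 30.3% and 32.4% in DU145, and the falls of the regulators are near those shares. GABPA and TFAM were picked after their values were seen, and the regulators that were higher are not named. Results with the GC or length trend divided out are not given for CYC1, CYCS, MT-ND1, GABPA or TFAM. GABPA, an ETS factor known to bind promoters of this pathway, averaged 9.89, 1.67 and 1.77 FPKM in BPH-1, DU145 and PC3 and fell by 2.12 ± 0.33 in DU145 (limma adjusted p = 0.000371) and 2.0 ± 0.26 in PC3 (limma adjusted p = 0.00012). It shares 413 exon bases with ATP5PF on the other strand, and strand use is not given. TFAM, which packages and transcribes mitochondrial DNA, averaged 19.6, 2.87 and 6.54 FPKM and fell by 2.50 ± 0.31 in DU145 (limma adjusted p = 8.66e-05) and 1.54 ± 0.30 in PC3 (limma adjusted p = 0.00149). NRF1 and YY1, other factors known at these promoters, passed in none of the comparisons. In PC3 against DU145 the mitochondrially encoded list gave 2 higher and 1 lower, the assembly factors 3 and 8, the cycle enzymes 6 and 0, the carriers 3 and 3 and the regulators 1 and 3.

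Promoter sequence was available for 77 of the 100 genes in the RefSeq table of GRCh38.p14, as 250 bases before and 50 after the annotated start. On either strand, the NRF1 motif GCGCANGCG was in 24 of the 77 (31.2%) and in 8.05% of all 27305 promoters, and the ETS motif CCGGAAG was in 22 (28.6%) and in 10.7% of all. The YY1 motif AAGATGGC was in 12 (15.6%) and in 3.03% of all, and the ERRA motif TCAAGGTCA in 1 (1.3%) and in 0.359% of all. Among promoters of protein-coding genes alone, which all of these are, the shares were 11% for NRF1, 14.2% for ETS, 3.91% for YY1 and 0.24% for ERRA. At least 1 of the motifs was in 44 of the 77. Divided by the call in PC3 against BPH-1, the NRF1 motif was in 13 of 43 higher, 3 of 11 lower and 7 of 20 genes not called, and the ETS motif in 14, 2 and 6 of the same groups. These matches describe letters in the windows and no binding was measured here.

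The 150 bases before the start are printed for the 3 largest rises and the 3 largest falls of PC3 over BPH-1 for which a promoter entry was given, so that genes moving in opposite directions can be read side by side. They run 5′ to 3′ on the strand of the gene, with matches to the motifs in capitals, the NRF1 motif in ATP5MC2 and UQCRC1 (on the opposite strand) and in NDUFA12, and the ETS motif in NDUFB7. The stretches are chr12:53676084-53676233, chr3:48609647-48609796, chr19:14572067-14572216 and chr12:95003698-95003847 on the minus strand and chr5:53560489-53560638 and chr16:21953211-21953360 on the plus strand.
ATP5MC2: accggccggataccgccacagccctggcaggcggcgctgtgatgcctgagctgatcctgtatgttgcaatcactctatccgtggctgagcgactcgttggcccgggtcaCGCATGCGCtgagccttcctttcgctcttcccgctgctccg
UQCRC1: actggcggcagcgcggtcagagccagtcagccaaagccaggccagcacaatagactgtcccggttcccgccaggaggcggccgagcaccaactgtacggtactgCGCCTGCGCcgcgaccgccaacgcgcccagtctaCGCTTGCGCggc
NDUFB7: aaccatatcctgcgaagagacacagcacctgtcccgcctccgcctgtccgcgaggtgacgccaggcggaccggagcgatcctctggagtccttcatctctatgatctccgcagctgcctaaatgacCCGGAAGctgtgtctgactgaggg
NDUFS4: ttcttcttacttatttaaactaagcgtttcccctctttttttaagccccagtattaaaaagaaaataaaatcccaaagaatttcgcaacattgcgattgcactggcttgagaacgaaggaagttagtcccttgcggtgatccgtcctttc
UQCRC2: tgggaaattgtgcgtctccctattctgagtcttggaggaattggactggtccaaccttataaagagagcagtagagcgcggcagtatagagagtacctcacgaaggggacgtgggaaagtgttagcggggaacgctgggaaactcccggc
NDUFA12: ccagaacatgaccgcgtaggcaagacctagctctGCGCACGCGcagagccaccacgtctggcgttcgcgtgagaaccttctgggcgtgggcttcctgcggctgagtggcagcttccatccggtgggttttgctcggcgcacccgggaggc
The NRF1 motif thus stood before ATP5MC2 and UQCRC1, which rose in PC3, and before NDUFA12, which fell, while the stretches of NDUFS4 and UQCRC2 held none of the 4 motifs. The longer windows of NDUFS4 and UQCRC1 held a YY1 motif outside the bases printed.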

How the data were processed

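RNA was sequenced from 12 samples, 4 each of BPH-1, DU145 and PC3. The deposited table of the authors holds values whose header names no unit and which have the form of FPKM, on GRCh38. The submitters' processing notes name CASAVA 1.8, HISAT2 2.1.0 and edgeR with no role, and strand use is not given in the sources used here. The steps between low FPKM values gave back each library's depth (12950665 to 16309559 reads), with 93.0 to 94.2% of low values whole within 0.05 read when a gene's length was the sum of its distinct unmerged exons. Levels of different genes were therefore compared on FPKM recomputed with merged exons, except that the choice of the highest genes of each complex used the deposited FPKM.

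Values were tested as log2(FPKM + 1) in limma 3.58.1 (R 4.3.3) with an intensity trend, 1 fit for each pair of lines, and p-values were adjusted by Benjamini-Hochberg over all genes tested (0.05). This scale understates changes of low genes. Genes needed 10 reads at the median depth in 4 libraries and 15 in all. On simulated data for PC3 against BPH-1 (16453 genes), 152 of 200 changed genes were recovered and 15 unchanged genes were called. Replicate pairs differed beyond counting noise (18 pairs), so none was merged. Python 3.11.15 was used for the rest.

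The genes, lists and tests were chosen with earlier results of these data known. Named genes were, in each comparison, the 6 largest rises and 6 largest falls without overlap, the core subunits of complex I, complex II, the isoform sets, ATP5IF1, the 3 genes of highest deposited mean FPKM in each complex and those with no read. Other genes named were chosen after their values were seen. 1 gene that the rule names is not reported here. Alternatives covered filter, pseudocount, scaling, GC and length trends, voom on recovered reads, 1 fit over 3 lines, a replicate block and each library left out. Fits with each pair of DU145 libraries were added after seeing the data.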

Additional observations from a re-analysis of the deposited data

Results flagged for a closer look

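Dixon's criterion, applied to the 4 values of a gene within a line, singled out a value in 5 of 148 sets, where chance gives about 1 in 20. COX7B was at 19.87 FPKM in DU145 replicate 3, against 13.05 to 14.12 in the others. COX8C was at 0.1216 in DU145 replicate 3 and at 0 in the others. NDUFA1 was at 271.5 in PC3 replicate 4, against 196.5 to 205.3. NDUFS3 was at 4.543 in PC3 replicate 4, against 3.007 to 3.22. UQCRH was at 72.8 in BPH-1 replicate 3, against 59.38 to 61.32.

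For 5 genes the calls against BPH-1 went in opposite directions in the PCa lines, and PC3 was compared with DU145 directly by limma. The log2 fold changes of PC3 against DU145 were 2.21 for COX16, 1.12 for ATP5MC3, 0.81 for NDUFB3, -0.95 for NDUFB1 and -1.11 for NDUFB8. Each had a limma adjusted p under 0.05 there, the largest being 0.0101 for NDUFB8. This was a condition of the flag, and all genes with opposite calls met it. The sign of each difference follows from the opposite calls against the same BPH-1 libraries, so it is no separate test of them. Of the calls of these genes against BPH-1, all but the rise of COX16 in PC3 were lost under at least 1 alternative.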

How the results depend on the processing

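Scaling to the same sum gave 33 higher and 22 lower in PC3 against BPH-1 and 21 and 24 in DU145 against BPH-1. The length trend divided out gave 19 lower in PC3 and 21 in DU145. A log2 fold change over 1 left 12 higher and 3 lower, 9 and 4, and, for PC3 against DU145, 7 and 3. Median of ratios, and DU145 replicates 3 and 4 alone (chosen after seeing the data), each gave 9 lower in PC3 against DU145. Of all genes, 24.5% and 23.3% were lower in these settings. Leaving out 1 library at a time gave 11 to 20 lower in DU145 against BPH-1 and 14 to 29 higher in PC3 against DU145, both highest without DU145 replicate 3. The cause of these changes was not tested, except that the fold requirement is stricter by construction. Same-numbered libraries did not deviate together consistently (correlations -0.65 to 0.51 over 12 pairs). Between PC3 and DU145 the correlations were -0.46, 0.51, 0.05 and -0.65 for replicates 1 to 4, and those with BPH-1 lay between -0.14 and 0.10. With a replicate block the counts were 48 and 11, 33 and 12, and 13 and 11.

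With the GC trend divided out, log2 fold changes in PC3 against BPH-1 changed sign for COX6B1 (-0.023), NDUFA13 (-0.027), NDUFB6 (0.62), NDUFS1 (0.32), NDUFS3 (-0.30), NDUFS7 (-0.13), NDUFV1 (-0.062), UQCR11 (-0.41) and UQCRQ (-0.34), and in DU145 for COX7B (0.023) and NDUFA5 (0.090). With the length trend divided out they did so in PC3 for NDUFB3 (-0.046), NDUFS5 (-0.29), SDHC (0.33), UQCRH (-0.0093) and UQCRQ (-0.26). Called under every alternative in which they were tested, other than the fold requirement, were 31 of 53 higher and 8 of 12 lower genes in PC3, 21 of 35 and 5 of 12 in DU145, and 12 of 17 and 7 of 14 in PC3 against DU145. These counts include COX6B2 and NDUFA4L2, whose calls rest on the selection by reads described above.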
